A study of Mus musculus with 2 samples.

Results

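The MYC, MAX and MXD network was examined in 14837 cells, a mouse line of pancreatic ductal adenocarcinoma (PDAC) from the C57BL/6 strain. Its 10 members were taken by gene symbol from a deposited table of 21983 entries: the activators Myc, Mycn and Mycl, their partner Max, the repressors Mxd1, Mxd3, Mxd4, Mxi1 and Mnt, and the MAX-like factor Mlx. All 10 symbols were found, each on 1 row. The study's 2 libraries came from 14837 cells held for 48 h in conditional medium, that is, medium in which other cells had grown, taken either from cancer-associated fibroblasts (CAFs) or from 14837 cells themselves. In the table, 1 value column carried a name that matches the CAF-medium library, and the other matched the labels of neither, so the levels below are those of 1 CAF-medium library and no contrast between the media was made. They show how much of each transcript was counted in CAF medium and not whether the medium changed it.

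The proteins of this network share a basic helix-loop-helix leucine zipper (bHLH-zipper), bind DNA as pairs and recognise the E-box CACGTG. MYC proteins paired with MAX recruit histone acetyltransferases and raise transcription, while MXD proteins and MNT compete for MAX and recruit the SIN3 corepressor with its histone deacetylases. MLX is the obligate partner of the glucose-sensing MONDO factors MLXIP and MLXIPL, and it can also pair with MXD1, MXD4 and MNT. In pancreatic cancer driven by mutant RAS, MYC is known as a main effector of growth and of metabolic change.

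Myc stood far above every other member. It had 14486 counts, or 681 counts per 1000000 of the library (CPM), with an exact Poisson 95% interval of 670.03 to 692 CPM. The other 9 members ranged from 0 to 132 CPM. The network as a whole held 23054 counts, 0.108% of the library, and Myc alone supplied 62.8% of them. Per kilobase of all annotated exons, a scale that allows for annotated gene length, Myc supplied 72.3% of the summed level of the 10 members. Counting error is the only error that can be given, since there was 1 library and no second culture, and all intervals below are of this kind.

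**Figure D1:**
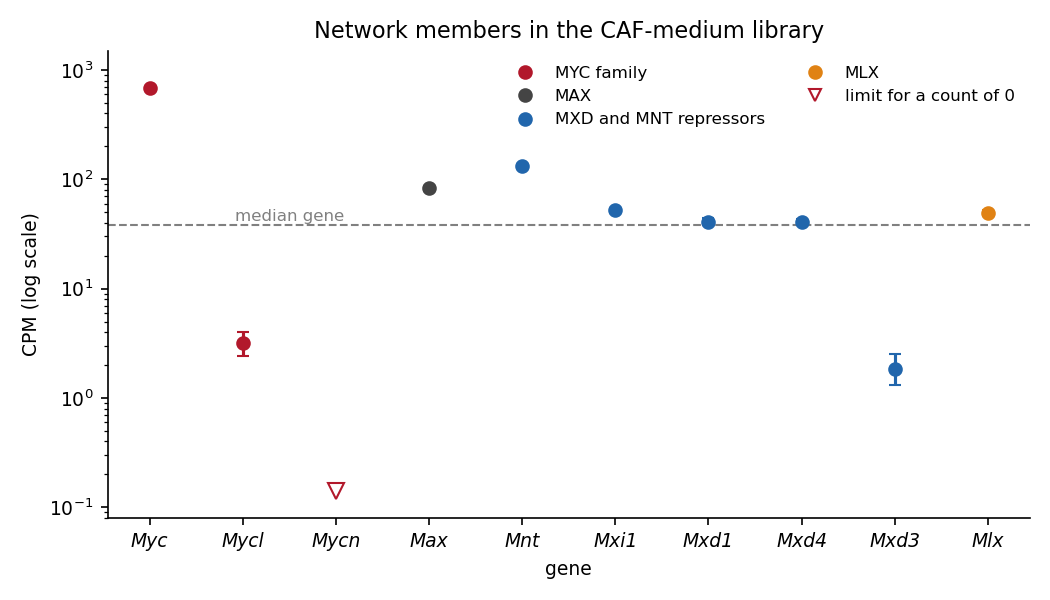
CPM of each network member in the CAF-medium library on a log axis, coloured by role. Points are the levels and bars exact Poisson 95% intervals, which cover counting error only; the open triangle marks 0.141 CPM, the counting limit for Mycn, listed at 0; the dashed line is the median gene at 37.9 CPM. Myc at 681 CPM stands above Mnt at 132 CPM, while Mycl and Mxd3 lie below 4 CPM.

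The library held 21269197 counts. Of the table's entries, 52.6% had at least 10 counts, and 9 of the 10 members did. The median gene among entries with at least 10 counts had 806 counts, or 37.9 CPM, and 26.3% of all entries exceeded that level, as did 26.3% of protein-coding entries. In CPM 7 of 10 members exceeded it, and per kilobase of all exons 4 of 10 members exceeded the median gene of that scale (8.14 CPM per kilobase). The share of all entries above that second median is not given. The 3 that differed between the scales, Mxi1, Mxd1 and Mxd4, have long annotated exons of 6823, 7072 and 8483 bases. No stretch of 64 bases sampled from the longest transcript of any member was found in transcripts of genes at other loci. Confusion with near-identical transcripts from elsewhere was thus not seen for them. Genes that overlap a member were left out of that search. Of 8 ductal epithelial markers 5 exceeded the median gene. These were the keratins Krt18, Krt8, Krt7 and Krt19, between 418 and 1819 CPM, and Cdh1 at 370 CPM. Sox9 stood below the median gene at 17.2 CPM, Epcam had 2 counts and Cldn4 was listed at 0. Of 8 fibroblast markers 0 exceeded the median gene, with Col1a2, Col3a1, Dcn and Lum listed at 0 and Pdgfra highest at 34.2 CPM. Of 8 leukocyte and endothelial markers 0 exceeded it, and their summed level was 6.02 CPM. Genes that cells generally use, such as Uqcrc1 and Atp5a1, were also listed at 0, and Gapdh had 425 counts. A 0 in this table is therefore given only as a listed value, and low counts such as those of Mycl and Mxd3 may also be too low.

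The MYC family was represented almost wholly by Myc itself. Myc (chr15:61985391-61990374, plus strand, mm10) encodes the broadly expressed member, which responds to growth signals. It ranked 144th among all entries and lay above 98.8% of genes with at least 10 counts, at 18.0 times the median gene in CPM. Mycl (chr4:122995652-123002485, plus strand), a family member best known in small cell lung cancer and dendritic cells, had 67 counts or 3.15 CPM (2.44 to 4.0). Of the genes with at least 10 counts, 12.6% were lower than Mycl. Per kilobase of all exons Myc stood at 251 and Mycl at 0.78 CPM, a ratio of 321 (exact 95% interval 253 to 415). Mycn (chr12:12936093-12941914, minus strand), the member known from neuroblastoma and embryonic tissue, was listed at 0. A fixed limit of 3 counts or 0.141 CPM was used for it, and the exact Poisson interval reached 3.69 counts or 0.173 CPM. Neither limit holds if the 0 is a failed count. Myc held 14486 of the 14553 counts of the family, or 99.5% (exact binomial interval 99.4% to 99.6%). That share and its interval take the listed values of Mycl and Mycn as they stand.

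**Figure D2:**
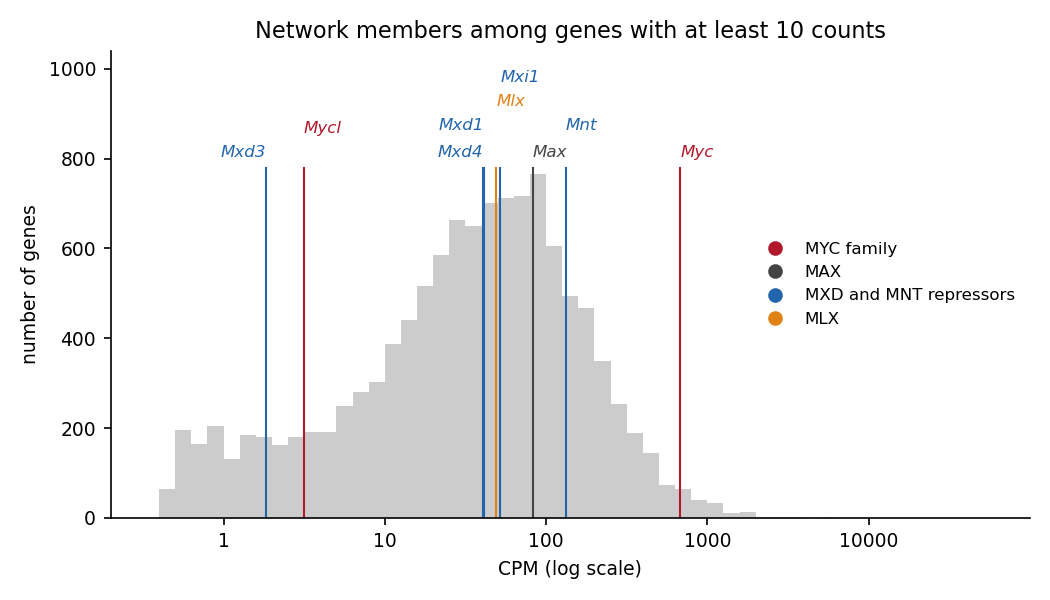
Histogram of CPM on a log axis for the 11569 entries with at least 10 counts in the CAF-medium library, with a vertical line for each of the 9 members that reached that count. Myc lies in the upper tail above 98.8% of these genes, Mycl and Mxd3 in the lower tail, and the other 6 between 40.7 and 132 CPM, in the middle and upper part.

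Max (chr12:76937269-76962201, minus strand) encodes the partner shared by MYC, MXD and MNT proteins. It had 1760 counts, or 82.7 CPM (78.9 to 86.7), and 70.9% of the genes with at least 10 counts were lower. Myc had 8.23 times the counts of Max (7.83 to 8.65). Per kilobase the ratio depended on the gene length used, at 10.9 with all exons, 6.84 with the longest transcript and 2.9 with the longest coding sequence. Myc was above Max on each of these scales. Summed over the genes whose products are known to pair with MAX, namely the 3 MYC genes, the 5 repressors and Mga, the level per kilobase of all exons was 13.6 times that of Max. With the longest transcript that sum was 8.56 times the level of Max, and with coding length 4.56 times. These are ratios of transcripts, and protein amounts were not measured.

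Mnt led the repressors. Mnt (chr11:74830920-74845725, plus strand) encodes the widely expressed MAX-binding repressor that is known to be present in growing as well as resting cells. It had 2814 counts, or 132 CPM (127 to 137), the highest of any member after Myc. It held 49.4% of the 5695 counts of the 5 repressors (48.1% to 50.7%) and 60.1% of their summed level per kilobase of all exons. Its share was 49.9% with the longest transcript and 28.6% with coding length, still the highest of the 5. Mxi1 (chr19:53310518-53375810, plus strand), an antagonist of MYC also known as a hypoxia-induced gene, had 1105 counts or 52.0 CPM (48.9 to 55.1). Mxd1 (chr6:86647042-86669161, minus strand), known to come on as cells differentiate, had 872 counts or 41.0 CPM (38.3 to 43.8). Mxd4 (chr5:34173883-34187720, minus strand), likewise linked to differentiated cells, had 865 counts or 40.7 CPM (38.0 to 43.5). Mxd1 and Mxd4 could not be told apart in counts, with a ratio of 1.01 (0.917 to 1.11). Mxd3 (chr13:55325168-55329823, minus strand), a member known from S phase and proliferating progenitors, stood apart at 39 counts or 1.83 CPM (1.3 to 2.51). It made up 0.685% of the repressor counts (0.487% to 0.935%), and 9.14% of genes with at least 10 counts were lower.

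Myc exceeded the sum of the 5 repressors. In counts Myc was 2.54 times their sum (2.47 to 2.62). The ratio was 5.27 per kilobase of all exons, 5.04 per kilobase of the longest transcript and 1.91 per kilobase of coding length. Mnt was also set against Max. It had 1.6 times the counts of Max (1.51 to 1.7) and 1.24 times its level per kilobase of all exons (1.17 to 1.32). The order of Mnt and Max turned round with the longest transcript, where Mnt stood at 0.676 times the level of Max, and with coding length, where it stood at 0.433 times. Without Mnt, the other 4 repressors summed to 0.825 times the level of Max per kilobase of all exons and 0.679 times with the longest transcript, but to 1.08 times with coding length and 1.64 times in counts (1.54 to 1.74).

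**Figure D3:**
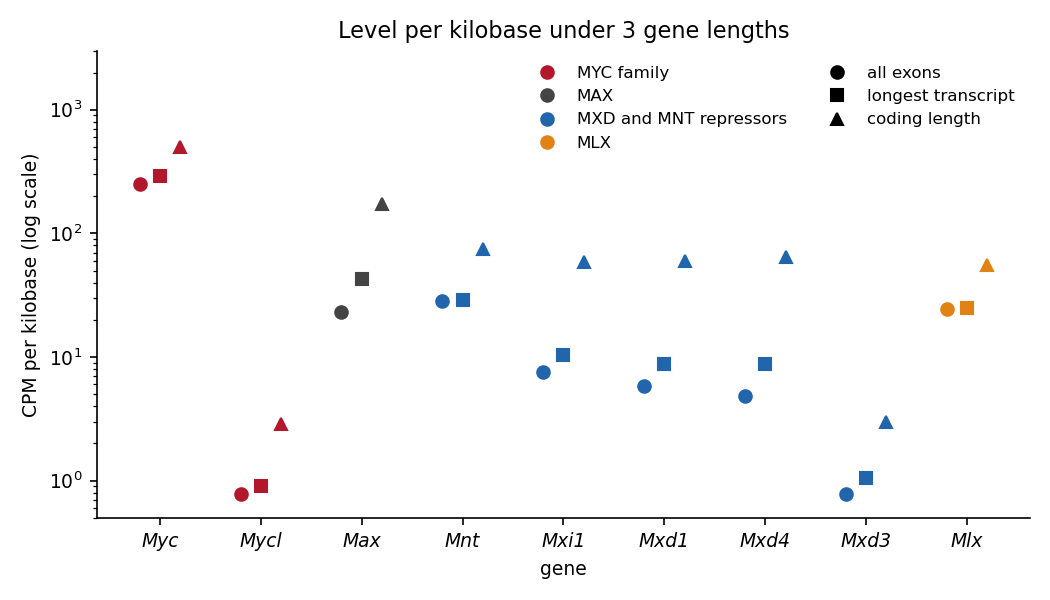
CPM per kilobase on a log axis for the 9 members with counts, with circles for the length of all exons, squares for the longest transcript and triangles for the longest coding sequence. Myc is highest and Mycl and Mxd3 are lowest on all 3 scales, while Max moves from 23.0 with all exons to 172 with coding length and passes Mnt.

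Mlx (chr11:101087277-101092207, plus strand) was at a level like that of the middle repressors in CPM. It had 1046 counts, or 49.2 CPM (46.2 to 52.3), and its ratio to Mxi1 next above it could not be told from equality (Mxi1 over Mlx 1.06, 0.97 to 1.15). Mlx is a short gene, and per kilobase of all exons it stood behind Myc and Mnt at 24.6 CPM, beside Max at 23.0. The ratio of Max to Mlx was 0.935 on that scale (0.865 to 1.01), 1.7 with the longest transcript and 3.13 with coding length. Exons of Psmc3ip, on the opposite strand, overlap 19.3% of the exonic bases of Mlx, and Psmc3ip had 226 counts. Opposite-strand overlaps were smaller for Mxd4 at 6.06%, Mxd3 at 4.43% and Mxi1 at 2.84%. The neighbour that overlaps Mxd3, Prelid1, had 3331 counts, against which the 39 counts of Mxd3 are few. Whether the counting used strand is not given in the sources used here, so part of the Mxd3 and Mlx counts cannot be told apart from these neighbours.

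The order of the members per kilobase of all exons was Myc, Mnt, Mlx, Max, Mxi1, Mxd1, Mxd4, Mycl, Mxd3 and Mycn. Within it, Mlx and Max differed by less than counting error, as did Mycl and Mxd3, whose ratio was 1.01 (0.669 to 1.54). The step from Myc to Mnt was 8.77 (8.42 to 9.13) and the step from Max to Mxi1 3.02 (2.8 to 3.26). The step from Mxd4 to Mycl was 6.15 (4.79 to 8.0). On this scale the members thus fell into Myc, a middle group of 6 genes between 4.79 and 28.6 CPM per kilobase, and 3 genes under 1 CPM per kilobase. The grouping depends on the length used. With coding length Max came next after Myc, with a step of 2.9 from Myc and 2.31 down to Mnt.

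The network's own binding motif occurs in promoters of several members. Promoter sequences of 9 members were found in the RefSeq table of GRCm38.p6, which covers 250 bases before and 50 after each start site, in 11 windows. Myc was not in that table. The E-box CACGTG, which reads the same on both strands, was present in the windows of Max, Mlx, Mnt and Mxd4, thus in 4 of 9 members. Among all table entries with a promoter window 9.19% held it, and among those with at least 10 counts 11.8%. The related CACGCG, searched on both strands, was found only in the window of Mycl among the members and in 14.2% of all entries with a window. The stretches around the 4 E-boxes are shown, since they carry the motif that the network's proteins bind, 5′ to 3′ on the strand of the gene with the E-box in capitals. They lie at chr12:76962246-76962331 (minus strand), chr11:101087170-101087289 (plus), chr11:74830721-74830886 (plus) and chr5:34187844-34187960 (minus).
Max: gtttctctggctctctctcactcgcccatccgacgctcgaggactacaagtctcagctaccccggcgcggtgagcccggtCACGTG
Mlx: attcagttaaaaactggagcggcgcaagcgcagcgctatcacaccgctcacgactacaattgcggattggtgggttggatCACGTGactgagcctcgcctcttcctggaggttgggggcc
Mnt: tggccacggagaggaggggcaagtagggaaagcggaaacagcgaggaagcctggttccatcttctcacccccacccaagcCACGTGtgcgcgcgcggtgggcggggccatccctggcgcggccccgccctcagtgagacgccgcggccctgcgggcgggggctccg
Mxd4: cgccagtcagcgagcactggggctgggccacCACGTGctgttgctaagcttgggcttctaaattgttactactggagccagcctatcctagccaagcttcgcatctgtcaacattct
The E-box began at position -3 from the RefSeq start site in Max, -40 in Mlx, -123 in Mnt and -219 in Mxd4. That of Max thus crosses the RefSeq start site, but it lies upstream of the GENCODE gene span of Max, which ends at 76962201. Those 4 genes stood between 40.7 and 132 CPM. The 5 members with a window and no CACGTG were Mxi1 at 52.0 CPM, Mxd1 at 41.0 CPM, and Mycl, Mxd3 and Mycn at 3.15 CPM or less. In the window of all members the share of G and C ranged from 55.0% in Mlx to 76.7% in Mxd1. A match to these letters is a description of the sequence, and binding was not measured.

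Further partners of MAX and MLX were present as well. Mga, a very large MAX-binding protein that takes part in a Polycomb complex, had 4340 counts or 204 CPM, second to Myc among 22 bHLH-zipper genes in CPM. Its long transcript lowered it to the 8th place per kilobase of all exons, where it stood at 0.578 times the level of Max (0.547 to 0.612). Of the MONDO factors, Mlxip had 1634 counts or 76.8 CPM and Mlxipl was listed at 0. Mlxip stood at 0.375 times the level of Mlx per kilobase of all exons (0.347 to 0.406) and at 0.508 times with coding length. Of 4 genes known to be acted on by MLX pairs, Txnip, which limits glucose uptake, was the only one above the median gene, at 378 CPM. Pklr had 140 counts, Arrdc4 11, and Arrdc2 was listed at 0. Over all entries, 26.3% exceeded the median gene. Among the same 22 bHLH-zipper genes, Myc was first, Mnt 2nd, Mlx 4th and Max 5th per kilobase of all exons, with the sterol regulator Srebf2 3rd at 26.1 CPM per kilobase.

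The proteins through which the network acts on chromatin were mostly encoded by genes above the median gene. Of 17 listed cofactors of MYC 16 exceeded it in CPM, against 26.3% of all entries, with a median of 94.7 CPM. The scaffold Trrap stood at 469 CPM, the acetyltransferase Ep300 at 406 CPM and Hcfc1 at 337 CPM. Skp2, a ubiquitin ligase subunit that also acts with MYC, was listed at 0. Of 11 listed genes for corepressors and MIZ1, 10 exceeded the median gene, and the list's median was 180.2 CPM. They were led by the histone-binding Rbbp4 and Rbbp7 at 327 and 302 CPM, Ncor1 at 267 CPM and the SIN3 scaffold Sin3b at 186 CPM, and the lowest was Zbtb17, the MYC partner MIZ1, at 31.1 CPM.

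**Figure D4:**
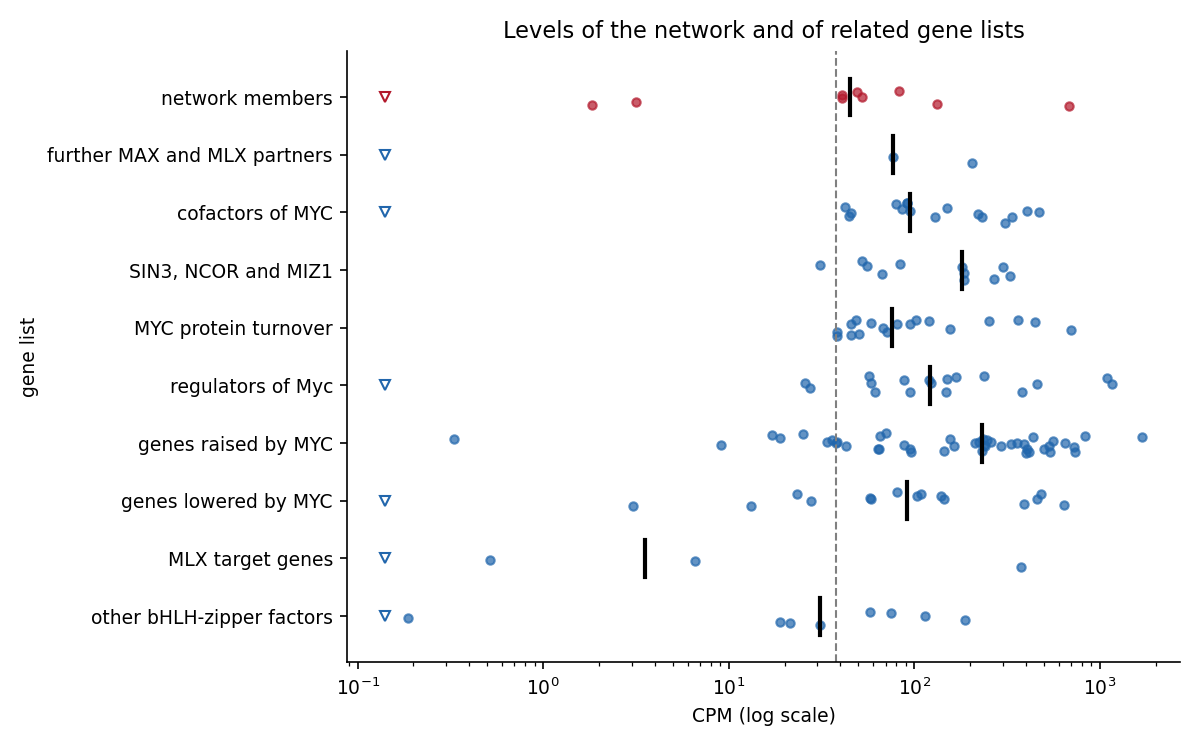
CPM on a log axis for the network members (red) and the genes of 9 related lists (blue) in the CAF-medium library, 1 point per gene. Black bars are list medians over all listed genes, and open triangles mark the fixed limit of 0.141 CPM for genes listed at 0. The dashed line is the median gene at 37.9 CPM. The network's median is 45.1 CPM and that of the genes raised by MYC 231 CPM.

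Genes that control Myc and those that it controls were also measured. For comparison, 26.3% of all entries exceeded the median gene in CPM, or 5780 of 21983. Those 5780 all lie among the 11569 entries with at least 10 counts, whose median sets that level. All 18 listed genes of MYC protein turnover exceeded the median gene; their median was 75.9 CPM, with the ubiquitin ligase Huwe1 highest at 698 CPM. Several lay just over that level. Per kilobase of all exons 15 of 18 exceeded the median gene, and 12 of 18 exceeded the median over genes with at least 100 counts. The share of all entries above either of those medians is not given, and the 26.3% does not apply to them. Fbxw7, which marks phosphorylated MYC for destruction, stood at 58.5 CPM. Of 18 regulators of Myc transcription and mRNA 15 exceeded it, with Ctnnb1 at 1161 CPM and the Myc-promoter binding proteins Cnbp and Fubp1 at 1097 and 457 CPM, while Lef1 was listed at 0. Of 45 genes known to be raised by MYC 38 exceeded it, with a median of 231 CPM, led by nucleolin Ncl at 1685 CPM, Mybbp1a at 837 CPM, Npm1 at 738 CPM and Ddx21 at 725 CPM. In 12 of these 45, Npm1 among them, over 10% of sampled transcript windows were shared with other genes, and Nme2 had 7 counts. Of 16 genes known to be lowered by MYC 11 exceeded the median gene (list median 91.6 CPM), led by Btg1 at 641 CPM and Ndrg1 at 483 CPM, while the cell cycle inhibitor Cdkn1a stood at 145 CPM and Cdkn1c was listed at 0. Levels in 1 library do not show whether MYC acted on any of these genes.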

How the data were processed

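RNA of 14837 cells was sequenced from 2 libraries, 1 per medium, with libraries made from 2 ug of total RNA, per the labels' protocols. HISAT2 2.1.0, StringTie and mm10 are named in the submitters' processing notes with no role for each; the way counts were made is not given in the sources used here. Deposited values are whole-number counts per gene symbol, made by the authors and not scaled to a fixed total. Of 2 value columns, 1 matched no library's labels and was not used, so the planned comparison of the media was not made. That the CAF column is the CAF-medium library rests on its name.

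Counts were divided by the column total of 21269197 and multiplied by 1000000 (CPM). Poisson and binomial 95% intervals are exact and cover counting error only, because reads can be copies of 1 molecule. At 100 counts the Poisson interval ran from 81.4 to 122 counts. For a count of 0 a fixed limit of 3 counts was used, below the upper end of the exact interval at 3.69 counts. Of 1789 entries with 10 to 99 counts, 36.0% were multiples of 3, against 33.3% of the whole numbers in that range. Lengths, coordinates, overlaps and shared windows (64 bases, every 16 bases) come from GENCODE M21 (GRCm38, the mm10 assembly), to which 21900 symbols matched. Coordinates are 1-based gene spans. Promoters are from RefSeq.

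All members are named at any value, and of each related list the 4 highest genes and those under 10 counts could be named; 1 such gene is not reported here. Fbxw7, Zbtb17, Cdkn1a, Cdh1 and Sox9 were added after their values were seen. The members, lists and ratios were chosen with earlier results of these data known. Intervals were tested on data simulated with Poisson error only, so that test does not show whether they hold for these counts. The software was Python 3.11.15 with scipy 1.17.1, numpy 2.4.6, matplotlib 3.10.9 and pandas 2.3.3.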

Additional observations from a re-analysis of the deposited data

How the results depend on the processing

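Gene length was the choice that moved the results most. The number of members above the median gene was 7 in CPM, 4 per kilobase of all exons and 4 per kilobase of the longest transcript. It was 4 with the median taken over genes of at least 100 counts and 7 over protein-coding genes. With no minimum count it was 9, where the median over all entries was only 0.94 CPM. Each setting has its own median gene. The share of all entries above it was 26.3% for the first setting and is not given for the others, which limits how far these counts can be compared. Myc held 99.7% of the MYC family's level per kilobase of all exons (99.6898%) and of the longest transcript (99.6921%). Myc over Max was 10.9, 6.84 and 2.9 per kilobase of all exons, longest transcript and coding length. Myc over the 5 repressors was 5.27, 5.04 and 1.91 on those scales, and 5.03 in counts without Mnt. Max over Mlx was 0.935 with all exons, within counting error of 1, and 3.13 with coding length. Per kilobase of all exons, 14 of 17 MYC cofactors and 9 of 11 corepressor and MIZ1 genes exceeded the median gene. On that scale 14 of 18 regulators, 41 of 45 raised and 13 of 16 lowered genes also exceeded it. Leaving out mitochondrial genes raised every CPM by a factor of 1.01, and leaving out the 100 highest genes by 1.16. Taking only the 250 bases before the RefSeq start site, an alternative chosen after seeing the data, left 3 members with CACGTG. Entries with at least 10 counts held it in 10.02%. The member lost was Max, whose E-box crosses that start site but not the GENCODE start. No paired analysis was possible because 1 library was analysed, and size factors, prior counts and leaving out replicates could not be tried for the same reason. Low counts limit Mycl and Mxd3, whose order was not settled on any scale per kilobase.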

Other observations

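The E-box CACGTG was more common among promoters of genes with counts than of genes without. It was present for 1080 of 9132 entries with at least 10 counts (11.8%) and for 326 of 5728 entries listed at 0 (5.69%). The related CACGCG differed more between these sets, at 20.4% of entries with at least 10 counts and 5.57% of entries listed at 0. Among entries with at least 10 counts, the median was 47.2 CPM with CACGTG and 38.0 CPM without it. Of the 38 genes known to be raised by MYC that had a promoter window, 11 held CACGTG (28.9%), and of 13 genes known to be lowered by MYC 3 did (23.1%). Base composition was not matched between these sets, and no test was made.

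Outside the network, the other bHLH-zipper factors were uneven. Of 9 such genes 4 exceeded the median gene in CPM, against 26.3% of all entries. They were Srebf2 at 187 CPM, Tfe3, a lysosomal and nutrient-sensing factor, at 115 CPM, Srebf1 at 75.3 CPM and Usf1 at 57.5 CPM. Mitf had 4 counts and Tfec was listed at 0. Usf1 shared 14.4% of its sampled windows with other genes.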
